A study of Homo sapiens with 27 samples.

Results

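The cytosolic heat shock chaperones are described here by 10 listed genes in MDA-MB-231 cells, an established invasive breast cancer line with a mesenchymal expression profile. A probe set, the group of short probes that together read 1 transcript on an Affymetrix array, counted as a member where the platform annotation named 1 of the listed genes and no other gene. This left 20 probe sets of 9 genes among 19064 probe sets that name 1 gene (11963 genes). HSPA4 and HSP90AA1 had 4 probe sets each, HSPA6, DNAJA1, DNAJB1, DNAJB4 and HSPH1 had 2 each, and CHORDC1 and HSPE1 had 1 each. For HSPA8, the constitutive cytosolic HSP70, all 3 probe sets also name small nucleolar RNA genes, so no level of it is given. The genes were listed by name, but with earlier results of these data known, so the list is not independent of the measured values. HSPE1 does not match the name of the group, because its protein, the partner of the chaperonin HSPD1, works in mitochondria.

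Chaperones bind proteins that are not fully folded. HSP70 proteins do so in cycles of ATP hydrolysis that J-domain proteins (DNAJA1, DNAJB1, DNAJB4) start and nucleotide exchange factors (HSPA4, HSPH1) reset, and HSP90 takes over later folding steps of kinases and receptors together with co-chaperones such as CHORDC1. Under proteotoxic stress the transcription factor HSF1 binds heat shock elements, repeats of a short unit in alternating orientation, and raises many of these genes, of which HSPA6 is the one most strictly tied to stress. O-GlcNAc is a monosaccharide mark of nuclear and cytosolic proteins, put on by OGT and taken off by OGA, and it has long been studied in connection with cell stress.

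Total RNA was measured in 27 arrays. The cells received DMSO as vehicle, 5SGlcNAc at 50 µM, which inhibits OGT, or Thiamet-G at 25 µM, which inhibits OGA. Each treatment has a single array at 0, 2, 4, 6, 8 and 24 h (18 arrays) and 3 arrays at 48 h (9 arrays). All groups are of the same line, with no change of genotype named, both inhibitors were used at a single dose, and those doses differ. The labels do not say whether the 48 h arrays came from separate cultures, so the p-values speak only of the spread among these arrays, and that spread may be technical.

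The deposited values are log2 expression levels. Array medians were 7.68 to 7.76 at 48 h and 7.43 to 7.53 at 0 to 24 h, so levels of the 48 h arrays were not set against the rest. The mean of 5 markers of the line (VIM, CD44, EGFR, CAV1 and SPARC) was 11.37 to 11.63, although SPARC was dim at 4.23 to 5.31. Of 8 measured markers of haematopoietic cells, 7 lay under the 40th percentile of all probe sets in both sets of arrays, as did 6 or 7 of 8 markers of fibroblasts and 3 of 9 of luminal epithelium. Of the luminal markers, 1 was lower at 2 h, 2 at 4 h, 2 at 6 h, 4 at 8 h and 3 at 24 h than at 0 h (median log2 differences -0.080, -0.13, -0.19, -0.22 and -0.11) in limma at an adjusted p under 0.05. Of all probe sets, 0.462%, 2.71%, 3.35%, 4.65% and 7.84% passed that threshold at these times, in either direction. At 24 h 1 of 8 fibroblast markers was lower too. At 48 h, 1 luminal marker was lower with 5SGlcNAc than with DMSO and 3 were lower than with Thiamet-G, where 7.52% and 9.98% of all probe sets passed. Between Thiamet-G and DMSO 0 differed, where 2.1% of all probe sets passed, with 2 at an unadjusted p under 0.05 in limma. With 5SGlcNAc against Thiamet-G, 1 of 5 markers of the line, 1 of 8 haematopoietic and 1 of 8 fibroblast markers were lower as well. The part of these markers in the changes of the chaperones was not tested. The 3' minus 5' difference of the ACTB control probe sets, a sign of RNA integrity, reached 1.64 (DMSO) and 1.24 (Thiamet-G) in a pair of arrays of 4 h, against 0.42 to 0.95 in the other arrays of 0 to 24 h and 0.15 to 0.39 at 48 h. In bulk RNA, less RNA per cell and fewer cells that express a gene cannot be told apart.

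Because heat shock elements are what these genes are known to share, the RefSeq promoter windows (GRCh38.p14) of the listed genes were searched for them. Each window runs from 250 bases before to 50 bases after an annotated start site, and the 10 genes have 14 windows. A match of 3 alternating units was written as GAANNTTCNNGAA or as TTCNNGAANNTTC, both strands were covered, and overlapping matches were kept. The first 4 stretches below hold such a match, in capitals, with 25 bases on either side, except that the DNAJA1 stretch ends with its match. For DNAJB1 the capitals mark a pair of matches of 2 units (GAANNTTC). The stretches are a selection and do not cover all genes with a result below. HSPA4 and DNAJB4 had probe sets that passed the tests below and are not shown. HSP90AA1 is shown, and none of its probe sets passed with the main settings.
CHORDC1: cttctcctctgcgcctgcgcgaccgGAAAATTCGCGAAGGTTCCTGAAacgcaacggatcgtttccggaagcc
HSPA6: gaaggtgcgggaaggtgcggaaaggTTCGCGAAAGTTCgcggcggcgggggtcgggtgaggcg
HSP90AA1: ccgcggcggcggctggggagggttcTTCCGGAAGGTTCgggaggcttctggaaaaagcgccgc
DNAJA1: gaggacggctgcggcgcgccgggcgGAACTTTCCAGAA
DNAJB1: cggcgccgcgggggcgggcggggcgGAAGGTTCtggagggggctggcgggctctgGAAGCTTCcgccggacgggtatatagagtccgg
All are written 5′ to 3′ on the strand of the gene. The CHORDC1 stretch is chr11:90223062-90223134 on the minus strand, that of HSPA6 is chr1:161524441-161524503 on the plus strand and that of HSP90AA1 is chr14:102087095-102087157 on the minus strand. The DNAJA1 stretch is chr9:33025251-33025288 on the plus strand, and that of DNAJB1 is chr19:14518412-14518499 on the minus strand, at the second of its 3 annotated start sites.

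The match of 3 units was present in the windows of 5 of the 10 genes, which were HSPA6, HSPA8, DNAJA1, CHORDC1 and HSP90AA1. Of all 27305 genes with a window, 0.608% hold one, or 0.49% of 35116 windows. The run in CHORDC1 was the longest shown, with 5 units from -60 to -38 relative to the start site and 3 overlapping matches. That of HSPA6 lay at -74 to -62 and that of HSP90AA1 at -88 to -76, while DNAJA1 has its match just past the start site, at 4 to 16. In the second DNAJB1 window the matches of 2 units lay at -77 to -70 and -47 to -40, and its first window holds 1 at 2 to 9, while 6.77% of all windows hold GAANNTTC. The reverse arrangement TTCNNGAA, held by 7.74% of all windows, is in the second DNAJB4 window at -98 to -91. The windows of HSPA4, HSPH1 and HSPE1 hold none of these letters. TGACNNNGC, the core of the antioxidant response element that NRF2 is known to bind, was searched because the series' title names NRF2. Of the members HSPA6 alone has it (16.1% of all genes with a window, 13.3% of all windows). The form TGAGNNNGC, searched as well, is in the windows of HSPA6, DNAJA1, CHORDC1 and HSP90AA1 (21.6% of all genes with a window, 18.3% of all windows). A match is a description of letters, and says nothing of whether a factor is bound in these cells.

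**Figure D1:**
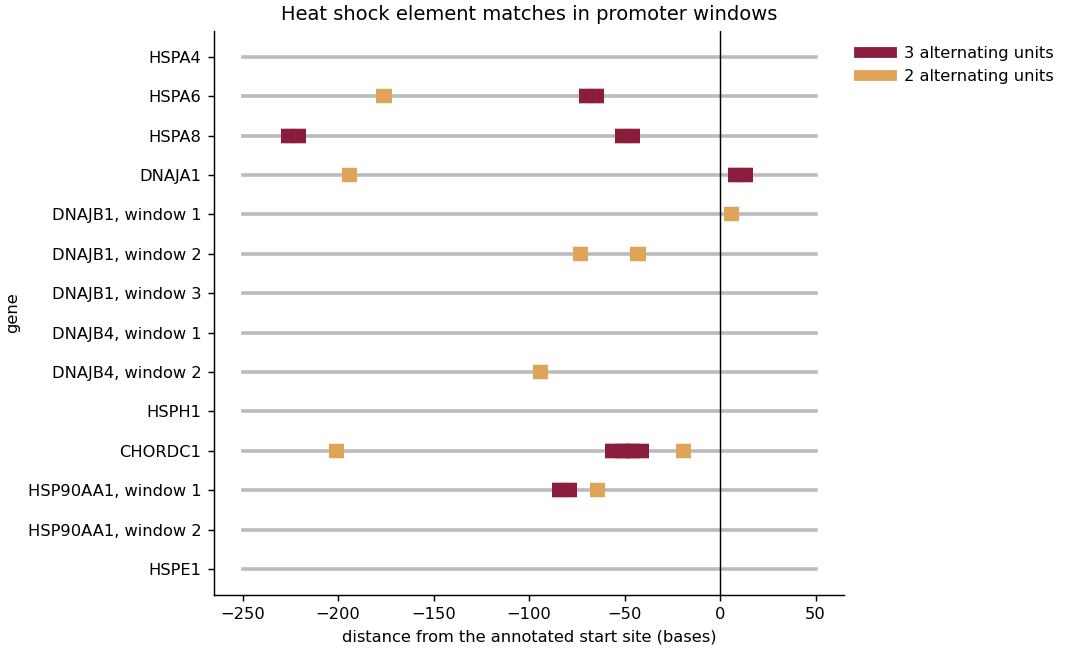
Matches of the heat shock element in 14 RefSeq promoter windows of the 10 listed genes, by distance from the annotated start site in bases; grey lines are the windows, dark bars matches of 3 alternating units and light bars matches of 2. The dark bars of CHORDC1, HSPA6 and HSP90AA1 lie between -88 and -38, and that of DNAJA1 lies after the start site.

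The first question was how the chaperones behaved over the first 24 h. HSPA6, the stress-inducible HSP70, changed most. It was higher at 4 and 6 h than at 0 h in all 3 series, the vehicle series among them, and stood near its 0 h level again by 24 h. DNAJB1, the J-domain partner of HSP70 that is a classical HSF1 target, rose in the same hours by far less. DNAJB4 was higher at 24 h, as were 2 of the 4 HSPA4 probe sets.

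HSPA6 was read by probe set 213418_at. With DMSO its log2 level was 6.86 at 0 h, 6.62 at 2 h, 8.82 at 4 h, 8.95 at 6 h, 7.36 at 8 h and 6.96 at 24 h. With 5SGlcNAc it was 6.86, 7.27, 8.48, 9.52, 7.93 and 7.27 at the same times. With Thiamet-G it was 6.53, 7.06, 7.47, 7.60, 7.34 and 6.92. All 3 arrays of 4 h and all 3 of 6 h were above all 3 of 0 h, which spanned 6.53 to 6.86. How many of all probe sets stand apart from 0 h in this way was not counted for any time up to 24 h. Relative to its own 0 h array, the 6 h level of HSPA6 was 4.25-fold higher with DMSO, 6.31-fold higher with 5SGlcNAc and 2.10-fold higher with Thiamet-G. Each is a value of single arrays with no test.

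The second HSPA6 probe set, 117_at, showed the same course at lower values. It went from 6.23 at 0 h to 7.45 at 4 h, 7.43 at 6 h and 6.47 at 8 h with DMSO. It went from 5.99 to 6.99, 7.97 and 6.99 with 5SGlcNAc, and from 5.87 to 6.38, 6.64 and 6.39 with Thiamet-G. HSPA6 has a near-identical pseudogene, HSPA7, and the probes of these sets may read both.

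Each time was tested against 0 h with limma, with the 3 treatment series standing in for replicates and as a block, so a change with time holds that of the treatments and of time in culture together. P-values were adjusted by Benjamini-Hochberg over all 19064 probe sets, and a probe set was called where the adjusted p was under 0.05. At 4 h, 3 member probe sets were called, all higher, where 2.71% of all probe sets were called (1.01% as higher). They were both HSPA6 probe sets, with log2 changes of 1.50 (SE 0.29, limma adjusted p = 0.0125) and 0.91 (adjusted p = 0.0337), and DNAJB1 200666_s_at with 0.32 (SE 0.079, adjusted p = 0.0450). At 6 h, 5 members were called, all higher, against 3.35% of all probe sets (1.8% as higher). HSPA6 had its largest changes here, 1.94 (SE 0.29, limma adjusted p = 0.0040) and 1.31 (adjusted p = 0.0055), or 3.84-fold and 2.49-fold.

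The arrays of 4 h include the DMSO and Thiamet-G arrays with the high ACTB difference. Without them 1 array of 4 h is left, that of 5SGlcNAc, assumed to vary as the other times do. The change of HSPA6 213418_at at 4 h was then 1.36 and no longer passed in limma (adjusted p = 0.281), and no member was called at 4 h. The arrays of 6 h had ACTB differences of 0.42 to 0.61, and their fit takes its spread from all 18 arrays, those of 4 h among them. Without the DMSO and Thiamet-G arrays of 4 h the same 5 probe sets were called at 6 h. The part of RNA integrity in the values of 4 and 6 h was not tested. Leaving out the DMSO series or the 5SGlcNAc series ended both HSPA6 calls at 4 and 6 h (changes of 213418_at 1.28 to 1.87, limma adjusted p = 0.113 to 0.229), while without the Thiamet-G series they held.

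**Figure D2:**
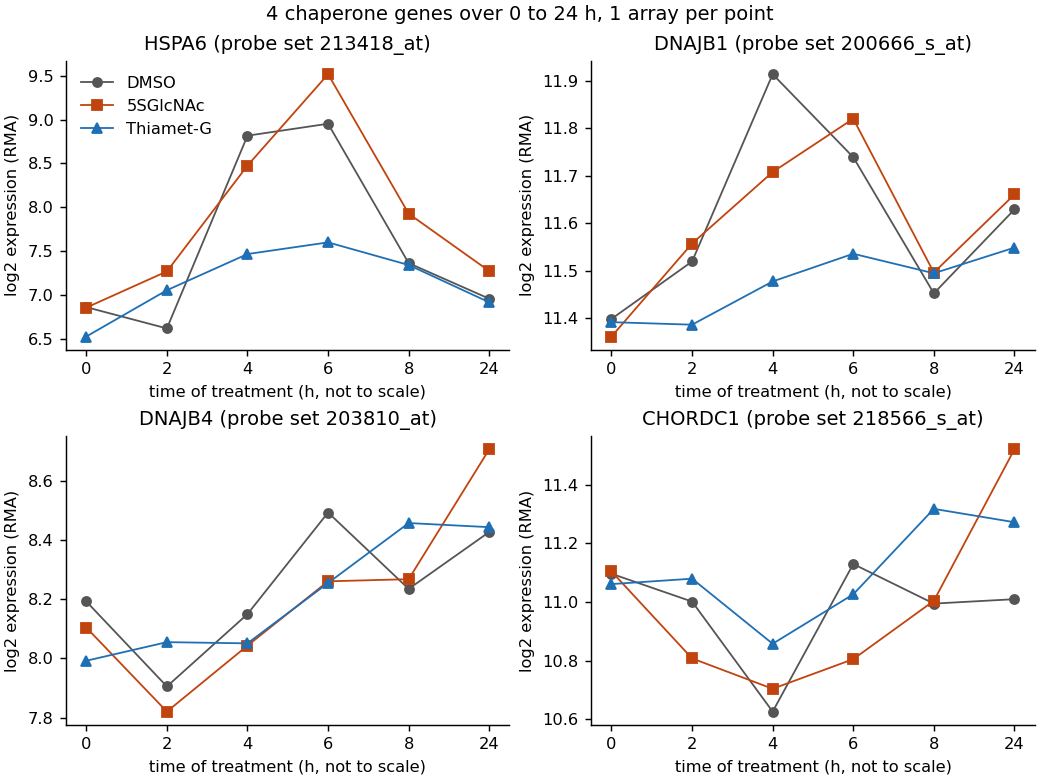
Log2 expression of HSPA6, DNAJB1, DNAJB4 and CHORDC1 by hours of treatment (unequal spacing), 1 array per point, for DMSO, 5SGlcNAc and Thiamet-G; each panel has its own axis. HSPA6 reaches 8.95 and 9.52 at 6 h with DMSO and 5SGlcNAc and 7.60 with Thiamet-G, and CHORDC1 is highest in the 5SGlcNAc array of 24 h.

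DNAJB1 shared the rise with HSPA6, called at 4 and 6 h for 1 probe set and at 6 h but not 4 h for the other. Its probe set 200666_s_at stood at 11.40, 11.52, 11.91, 11.74, 11.45 and 11.63 with DMSO at 0, 2, 4, 6, 8 and 24 h. The values were 11.36, 11.56, 11.71, 11.82, 11.50 and 11.66 with 5SGlcNAc, and 11.39, 11.39, 11.48, 11.54, 11.49 and 11.55 with Thiamet-G. For 200666_s_at the arrays of 4 and 6 h were all above those of 0 h, and there the Thiamet-G arrays stood least above 0 h. Unlike HSPA6 213418_at, whose 24 h arrays were below those of 8 h, this probe set was higher at 24 h than at 8 h in each series. The other probe set, 200664_s_at, overlapped with 0 h. Its Thiamet-G array of 4 h read 10.20, below the DMSO array of 0 h at 10.23. At 6 h both DNAJB1 probe sets were called, with changes of 0.32 (limma adjusted p = 0.0424) and 0.35 for 200664_s_at (adjusted p = 0.0200). Leaving out any 1 series ended the DNAJB1 calls at 4 and 6 h, with changes of 0.22 to 0.44.

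The inhibitors were then compared over these hours. For HSPA6 the 5SGlcNAc arrays were above the Thiamet-G arrays at each of the 5 times from 2 to 24 h, at 2 h by 0.010 for 117_at. They were so already at 0 h, with 6.86 against 6.53 for 213418_at and 5.99 against 5.87 for 117_at, and the comparison does not subtract 0 h. The 5 times stood in for replicates, so the intervals over 2 to 24 h speak of the spread across times, not among replicates. The mean difference over these times was 0.82 for 213418_at (95% confidence interval 0.31 to 1.32) and 0.58 for 117_at (0.22 to 0.94). For DNAJB1 it was 0.16 (0.026 to 0.29) and 0.15 (0.047 to 0.26). None of the 4 passed over all probe sets in limma with time as a block (adjusted p = 0.18 for each HSPA6 probe set, 0.305 and 0.22 for DNAJB1). The 2 doses differ, so the compounds were not compared at matched doses.

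Against vehicle, the mean difference of Thiamet-G over 2 to 24 h was -0.47 for HSPA6 213418_at (95% confidence interval -0.97 to 0.042), -0.41 for 117_at (-0.77 to -0.044) and -0.16 for both DNAJB1 probe sets. For 213418_at it was 0.44 at 2 h, -1.35 at 4 h, -1.35 at 6 h, -0.021 at 8 h and -0.041 at 24 h, so it rests on 4 and 6 h. At 0 h the Thiamet-G array was below the DMSO array too, with 6.53 against 6.86 for 213418_at and 5.87 against 6.23 for 117_at. 5SGlcNAc was higher than vehicle by 0.35 and 0.17 for HSPA6, with intervals from -0.16 to 0.86 and from -0.19 to 0.54. No member was called in any of these 3 comparisons, in which limma called 0% of all probe sets for 5SGlcNAc against DMSO, 0% for Thiamet-G against DMSO and 0.0944% for 5SGlcNAc against Thiamet-G. At an unadjusted p under 0.05 in limma, 0, 3 and 5 members passed, and 870, 1598 and 2423 of all probe sets (4.56%, 8.38% and 12.7%). Both comparisons with vehicle use the same DMSO arrays.

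At 2 h no member was called, with 0.462% of all probe sets called. At an unadjusted p under 0.05 in limma stood 1 of 20 members, against 7.35% of all probe sets. At 8 h no member was called either, with 4.65% of all probe sets called. At an unadjusted p under 0.05 in limma there stood 6 of 20 members, against 21.3% of all probe sets.

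DNAJB4, a J-domain protein of the same subfamily as DNAJB1, was higher at 24 h than at 0 h in each series. Its probe set 203810_at went from 8.19 at 0 h to 8.43 at 24 h with DMSO, from 8.10 to 8.71 with 5SGlcNAc and from 7.99 to 8.44 with Thiamet-G. The probe set 203811_s_at went from 7.85 to 8.35, from 7.92 to 8.43 and from 7.89 to 8.21. All 3 arrays of 24 h lay above all 3 of 0 h for each. The changes were 0.43 (SE 0.097, limma adjusted p = 0.0136) and 0.44 (SE 0.11, adjusted p = 0.0215). At 6 h, 203811_s_at was already higher by 0.43 (limma adjusted p = 0.0452), and 203810_at stood at 0.30, 0.16 and 0.26 above its own 0 h array in the 3 series. That call at 6 h was lost after quantile normalization (0.43, limma adjusted p = 0.0592), after median centring (0.42, adjusted p = 0.0610) and without any 1 series.

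At 24 h, 5 members were called, all higher, against 7.84% of all probe sets (3.82% as higher). Besides DNAJB4 they were DNAJB1 200664_s_at, by 0.26 (limma adjusted p = 0.0375), and 2 probe sets of HSPA4, the exchange factor also known as Apg-2. HSPA4 211015_s_at read 10.68, 10.65 and 10.64 at 0 h and 10.89, 10.95 and 10.94 at 24 h with DMSO, 5SGlcNAc and Thiamet-G, without overlap. Its change was 0.27 (SE 0.060, limma adjusted p = 0.0121), and that of 208815_x_at was 0.19 (adjusted p = 0.0482), which median centring took past the threshold (0.21, adjusted p = 0.0509). The ending _x_at marks a probe set with probes that also match other transcripts. Another HSPA4 probe set, 208814_at, went the other way in each series, from 10.36 to 10.07, from 10.28 to 10.25 and from 10.37 to 10.02. It was not called with the main settings. It was called as lower where dim probe sets were dropped, and where the variance was fitted with trend and robust settings. Leaving out any 1 of the 3 series ended all 5 calls at 24 h, with limma adjusted p of 0.0515 to 0.343, and kept their direction.

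The remaining members were called at no time against 0 h. They were the 4 HSP90AA1 probe sets of the stress-inducible cytosolic HSP90, both probe sets of DNAJA1, a J-domain protein of the cytosol, both of HSPH1, the HSP105 exchange factor, HSPE1 and CHORDC1. CHORDC1, which binds HSP90, read lower at 4 h than at 0 h in every series, going from 11.10 to 10.63 with DMSO, from 11.10 to 10.70 with 5SGlcNAc and from 11.06 to 10.86 with Thiamet-G. The mean difference was -0.36 (limma adjusted p = 0.131), larger in size than the called change of DNAJB1 at 4 h. The ACTB differences of 4 h given above apply to those values too.

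**Figure D3:**
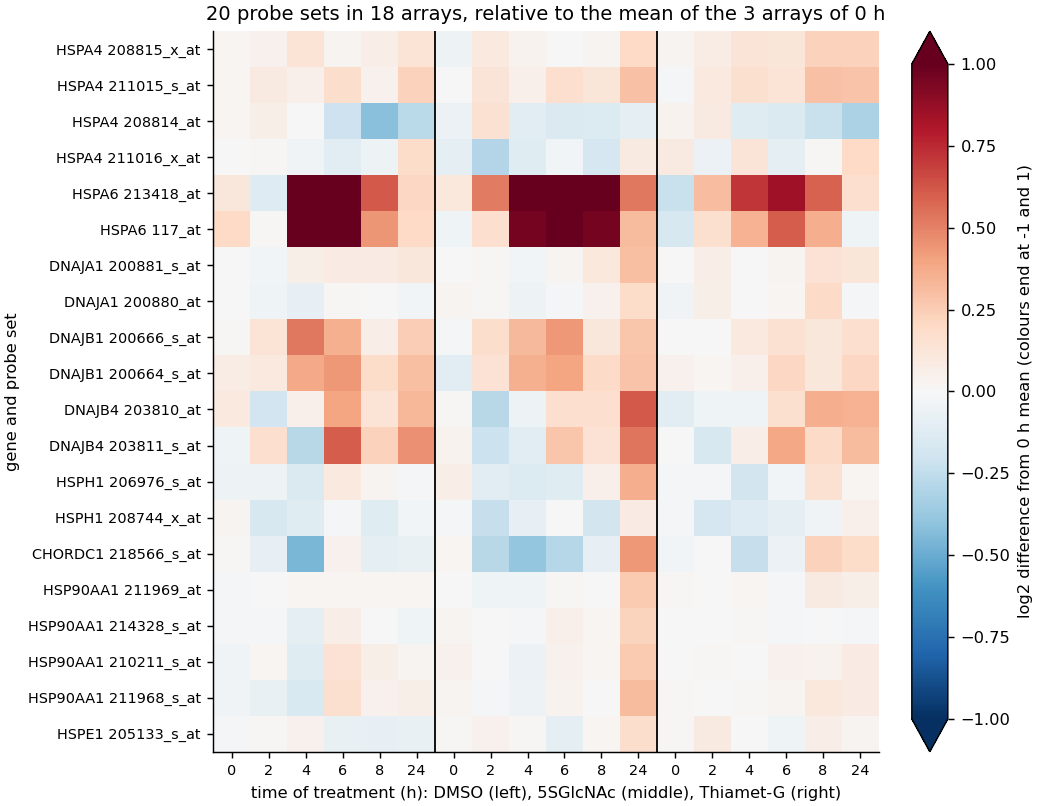
Log2 difference of the 20 member probe sets from the mean of the 3 arrays of 0 h, in 18 arrays ordered by treatment and hours; red is higher, blue lower, and colours end at -1 and 1. HSPA6 stands out at 4 to 8 h in all series, and the 5SGlcNAc column of 24 h is red over most rows.

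The single 5SGlcNAc array of 24 h held the highest value of the 18 arrays for 11 of the 20 members, and for 13 once each array's median was subtracted. Over all probe sets the shares were 7.9% and 15.1%. This array had the lowest median of the 18, at 7.43. The 11 included all 4 HSP90AA1 probe sets, for example 211969_at with 14.85 against 14.60 with DMSO and 14.65 with Thiamet-G at 24 h. They also included CHORDC1, with 11.52 against 11.01 and 11.27, HSPH1 206976_s_at, with 12.52 against 12.14 and 12.18, and HSPE1, with 12.04 against 11.79 and 11.89. With 1 array per treatment at 24 h there is no test of these differences, and no replicate of that array.

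The replicated arrays of 48 h gave the test of each inhibitor against vehicle. CHORDC1 was higher with both inhibitors, DNAJA1 was higher with 5SGlcNAc, and 1 of 4 HSPA4 probe sets was lower with Thiamet-G. Each of these changes from DMSO was 0.33 or less in size on the log2 scale. HSPA6, which led the early hours, was not called at 48 h.

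CHORDC1 stood at 11.14, 11.10 and 11.01 with DMSO, at 11.33, 11.35 and 11.36 with 5SGlcNAc and at 11.42, 11.25 and 11.38 with Thiamet-G. Both treated groups lay above all DMSO arrays, and they overlapped each other. The log2 difference from DMSO was 0.26 with 5SGlcNAc (SE 0.056, limma adjusted p = 0.0216) and 0.27 with Thiamet-G (adjusted p = 0.0460), each 1.20-fold. The 2 inhibitors differed by -0.0033 (95% confidence interval -0.13 to 0.12, limma adjusted p = 0.978).

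DNAJA1 200881_s_at read 12.94, 12.97 and 12.99 with DMSO, 13.14, 13.16 and 13.13 with 5SGlcNAc and 13.11, 13.06 and 13.12 with Thiamet-G. Again neither treated group overlapped with DMSO. The difference was 0.18 with 5SGlcNAc (SE 0.040, limma adjusted p = 0.0294) and 0.13 with Thiamet-G, which was not called (adjusted p = 0.148). The other DNAJA1 probe set, 200880_at, differed by 0.047 and 0.030.

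These calls were close to the threshold. Without any 1 of the DMSO or 5SGlcNAc arrays the DNAJA1 difference was 0.16 to 0.19 and limma's adjusted p 0.0640 to 0.0967. CHORDC1 with 5SGlcNAc held without DMSO replicate 1, and without DMSO replicate 2 or 3 or any 5SGlcNAc replicate its difference was 0.23 to 0.27 at an adjusted p of 0.0620 to 0.0773 in limma. CHORDC1 with Thiamet-G held without Thiamet-G replicate 2, and lost its call without any other single array (0.23 to 0.30, limma adjusted p = 0.0720 to 0.159). Median centring ended it too (0.31, adjusted p = 0.0540), as did a limma fit of the 6 DMSO and Thiamet-G arrays alone (adjusted p = 0.127).

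HSPA4 208814_at read 10.32, 10.30 and 10.27 with DMSO, 10.46, 10.28 and 10.40 with 5SGlcNAc and 9.87, 9.96 and 10.07 with Thiamet-G. All Thiamet-G arrays lay below the other 6. The difference of Thiamet-G from DMSO was -0.33 (SE 0.064, limma adjusted p = 0.0345), and 5SGlcNAc was above Thiamet-G by 0.41 (adjusted p = 0.0039). The first value lost its call without any single array other than 5SGlcNAc replicate 2 (-0.38 to -0.28, limma adjusted p = 0.0508 to 0.113), and the second kept it without each of the 9 arrays in turn. The first also lost its call after quantile normalization (-0.30, limma adjusted p = 0.0568), after median centring (-0.29, adjusted p = 0.0590) and with the 2 groups fitted alone (adjusted p = 0.0787). The other HSPA4 probe sets did not go with it. For 208815_x_at, 211015_s_at and 211016_x_at the difference of Thiamet-G from DMSO was 0.040, 0.18 and -0.053, none of them called. The probe sets of HSPA4 therefore disagree, and no direction is given for the gene.

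**Figure D4:**
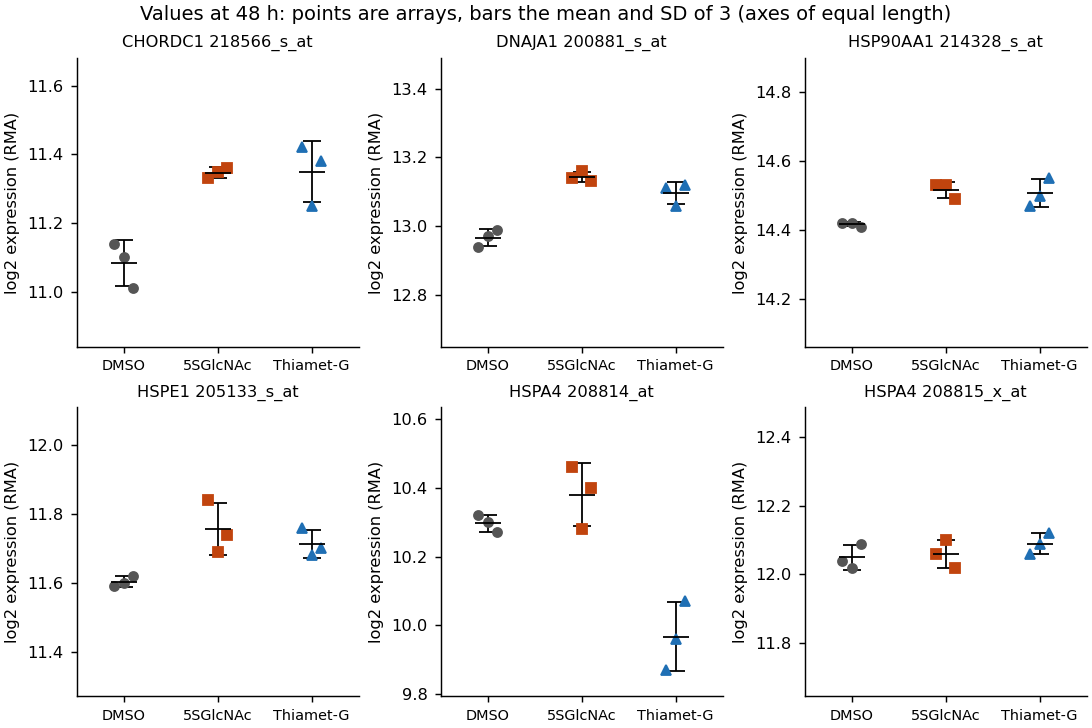
Log2 expression at 48 h of 6 member probe sets by treatment, on axes of equal length; points are arrays, and bars give the mean and SD of 3 arrays. CHORDC1 and DNAJA1 200881_s_at lie higher in all treated arrays than in all DMSO arrays, and HSPA4 208814_at lies at 9.87 to 10.07 with Thiamet-G while HSPA4 208815_x_at overlaps between the groups.

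Over all members, 19 of 20 differences between 5SGlcNAc and DMSO were above 0, with a median of 0.083, against 52.1% of all probe sets and a median of 0.0067. The 2 called members compare with 7.52% of all probe sets called, and 1.95% called as higher. In 11 members all 5SGlcNAc arrays were above all DMSO arrays, which held for 11.6% of all probe sets. The 11 included all 4 HSP90AA1 probe sets, with differences of 0.077 to 0.17, and HSPE1, with 0.15. Probe sets of 1 gene read RNA of the same gene and are not independent.

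With Thiamet-G, 15 of 20 differences from DMSO were above 0, against 44.7% of all probe sets. The median was 0.065, against -0.013 over all probe sets. The 2 called members, 1 higher and 1 lower, compare with 2.1% of all probe sets called and 0.289% called as higher. In 1 of 20 members, HSPA4 208814_at, all Thiamet-G arrays were below all DMSO arrays, which held for 2585 of all 19064 probe sets. In 8 members all Thiamet-G arrays were above all DMSO arrays, which held for 1121 of all probe sets (5.88%). HSP90AA1 214328_s_at, for example, read 14.42, 14.42 and 14.41 with DMSO, 14.53, 14.53 and 14.49 with 5SGlcNAc and 14.47, 14.50 and 14.55 with Thiamet-G. Its difference from DMSO was 0.10 and 0.090, neither of them called (limma adjusted p = 0.184 and 0.298). Both comparisons use the same 3 DMSO arrays, so they are not independent of each other.

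Between the inhibitors, HSPA4 208814_at was the only member called, where 9.98% of all probe sets were called (4.72% as higher with 5SGlcNAc). In 5 members all 5SGlcNAc arrays were above all Thiamet-G arrays, which held for 14.6% of all probe sets. DNAJB1 was among them with both probe sets, by 0.12 and 0.14, neither of them called (limma adjusted p = 0.107 and 0.223). HSPA6 gave different pictures with its 2 probe sets. Probe set 213418_at read 7.08, 7.11 and 7.04 with DMSO, 7.12, 7.10 and 7.31 with 5SGlcNAc and 7.04, 7.10 and 7.10 with Thiamet-G, with all groups overlapping. Probe set 117_at read 6.13 in all 3 DMSO arrays, 6.23, 6.26 and 6.21 with 5SGlcNAc and 6.34, 6.46 and 6.26 with Thiamet-G, so that both treated groups lay above DMSO. Its differences from DMSO were 0.10 and 0.22, neither of them called (limma adjusted p = 0.288 and 0.0727).

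**Figure D5:**
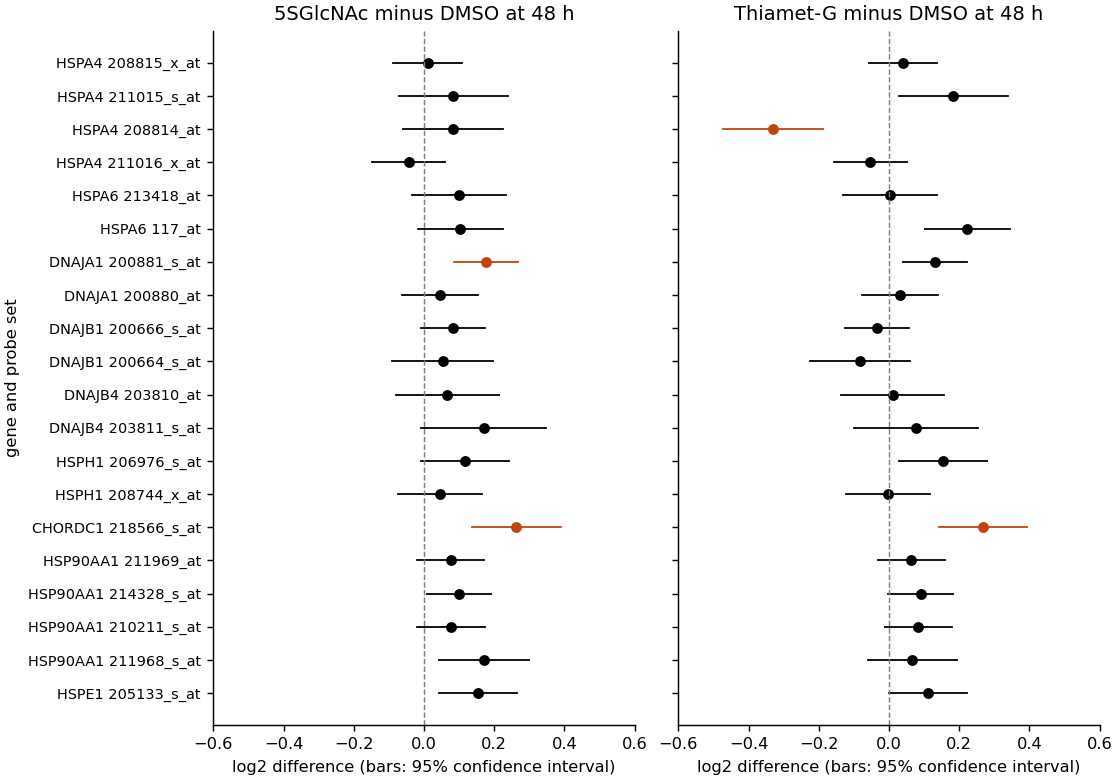
Log2 difference from DMSO at 48 h for the 20 member probe sets, with 5SGlcNAc (left) and Thiamet-G (right); bars are 95% confidence intervals from limma over 9 arrays, and coloured points passed an adjusted p of 0.05. Most points lie right of 0 on the left panel, and HSPA4 208814_at lies at -0.33 on the right.

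Of 71 other genes of the chaperone pathway, 62 were measured by a probe set naming 1 gene, read through the brightest such probe set of each gene. HSPA1A and HSPA1B, the main inducible HSP70 genes, were not among them. At 48 h, 5 rose and 0 fell with 5SGlcNAc against DMSO, or 8.06%, where 7.52% of all probe sets were called and 1.95% as higher. They were 1 of 7 other HSP70 genes, 1 of 12 other J-domain genes, 1 of 8 exchange factors and 2 of 15 genes of HSP90 and its co-chaperones, and 0 of 3 heat shock factors, 8 chaperonins and 8 small heat shock proteins. The 4 with the largest changes were DNAJC2, a ribosome-associated J-domain protein, by 0.34 (limma adjusted p = 0.0058), BAG2, an exchange factor of HSP70, by 0.25, HSPA4L, a relative of HSPA4, by 0.23, and FKBP4, an HSP90 co-chaperone, by 0.23. With Thiamet-G against DMSO 0 were called, with limma's unadjusted p under 0.05 for 12 (19.4%, against 17.3% of all probe sets). Between the inhibitors 6 were higher with 5SGlcNAc and 0 lower, or 9.68% against 9.98% of all probe sets. They were led by DNAJC2 (0.35), FKBP4 (0.30), TTC4 (0.22), a co-chaperone of HSP90, and UNC45A (0.21), which serves myosin folding. The median over the 62 genes was 0.055 for 5SGlcNAc against DMSO and -0.012 for Thiamet-G against DMSO. HSF1 itself differed from DMSO by 0.01 and -0.077.

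Over time, DNAJC9, a J-domain protein that binds histones, rose at 4 h by 0.27, at 6 h by 0.32 and at 8 h by 0.37 (limma adjusted p = 0.0219, 0.0095 and 0.0037), and at 4 and 6 h it was the only one of the 62 called. At 8 h HSPA4L rose by 0.35, and HSPB1, the small heat shock protein HSP27, and SERPINH1, the collagen chaperone of the endoplasmic reticulum, fell by 0.34 and 0.23. At 24 h HSPA4L rose by 0.62, DNAJB6 by 0.34 and BAG2 by 0.28, while PIH1D1 fell by 0.31 and DNAJB2 by 0.30. HSPA4L was thus called at 24 h together with HSPA4 211015_s_at and 208815_x_at. Of the 62 genes, 1.61% were called at 4 h and 1.61% at 6 h, against 2.71% and 3.35% of all probe sets. The share was 6.45% at 8 h and 8.06% at 24 h, against 4.65% and 7.84% of all probe sets. At 2 h, and in the 3 comparisons over 2 to 24 h, 0 of the 62 were called. An unadjusted p under 0.05 in limma was held by 2 to 4 of them (3.23% to 6.45%), against 4.56% to 12.7% of all probe sets.

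The genes most like the members were sought by Pearson's r, as a description. Over the 18 arrays of 0 to 24 h, the mean of the members was most like CDR2 (0.85), LUC7L3 (0.85), TENT4A (0.85), APPBP2 (0.84) and EIF1B (0.83). For single members the most like gene was YTHDC1 for HSPA6 (0.90), IL11 for DNAJB1 (0.92), CDK8 for DNAJB4 (0.93) and NCAPG for HSPA4 (0.85). Over the 9 arrays of 48 h it was AHCTF1 (0.97), BAG2 (0.96), ASF1A (0.94), CROCCP2 (0.94) and C9orf78 (0.94). These arrays share treatments, hours and normalization, and each gene was picked as the highest of all genes.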

How the data were processed

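Total RNA of MDA-MB-231 cells was hybridised to Affymetrix expression arrays. The authors deposited 1 log2 level for each probe set and array, computed with RMA (version not given) per the submitters' processing notes; genome build and probe alignment are not given in the sources used here. RMA equalises the distributions of arrays processed together, so a shift of most genes would be hidden. The 48 h values have 2 decimals and other medians than the rest, so every fit used arrays of 1 of the 2 sets. Genes were named by the platform annotation, with symbols updated through Entrez identifiers from RefSeq (19052 of 19064 probe sets matched).

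Tests were two-sided and used limma 3.58.1 (lmFit, eBayes; R 4.3.3) on the 19064 probe sets naming 1 gene, over which p-values were adjusted by Benjamini-Hochberg. At 48 h, 9 arrays shared 1 spread. Over 2 to 24 h time was a block, and against 0 h the treatment series was. The fits were tested on simulated data. The 48 h replicate numbers did not pair the arrays. Named genes were all members, the largest changes among called genes of the pathway lists (up to 4 a direction per 48 h comparison, up to 3 otherwise), and the genes most like the members by correlation. The members, lists and tests were chosen with earlier results of these data known. As alternatives, the arrays were quantile normalized or centred on their medians, probe sets under the 40th percentile were dropped, 1 probe set was used per gene, the variance was fitted with trend and robust settings, 2 groups were fitted alone, a replicate block was added, and each array or series was left out. Fits without the DMSO and Thiamet-G arrays of 4 h were added after seeing the data.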

Additional observations from a re-analysis of the deposited data

How the results depend on the processing

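No member called in any comparison reversed its direction under any alternative that was run. The larger moves in the counts of called members were as follows, and smaller ones, such as 3 to 4 at 4 h with quantile normalization, are not listed. The setting with 1 probe set per gene leaves 9 member probe sets. For 5SGlcNAc against DMSO at 48 h (2 members) they were 4 with the filter on dim probe sets and 5 with trend and robust variance. For Thiamet-G against DMSO at 48 h (2) they were 1 with quantile normalization, 0 with median centring, 1 with 1 probe set per gene, 5 with trend and robust variance, and 0 with only the arrays of the 2 groups. For 5SGlcNAc against Thiamet-G (1) they were 2 with quantile normalization, with the filter and with trend and robust variance, and 0 with 1 probe set per gene, since 208814_at is not the brightest HSPA4 probe set. At 4 h (3) the count was 0 without the DMSO and Thiamet-G arrays of 4 h, which leaves 1 array of 4 h, assumed to vary as the other times do. At 6 h (5) it was 2 with 1 probe set per gene, those of HSPA6 and DNAJB1. At 8 h (0) it was 1, HSPA4 208814_at as lower, with quantile normalization, with the filter and with trend and robust variance. At 24 h (5) it was 8 with the filter and with trend and robust variance, HSPA4 208814_at among them as lower, and 2 with 1 probe set per gene.

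Leaving out each array gave 0 to 2 for 5SGlcNAc against DMSO and 0 to 1 for Thiamet-G against DMSO. Leaving out each series gave 0 to 2 at 4 h, 0 to 2 at 6 h and 0 at 24 h. The 48 h replicate numbers did not pair the arrays (correlation of deviations -0.32 to 0.18 for the same number, -0.23 to 0.24 for others). With a replicate block 1 member was called for 5SGlcNAc against DMSO, 0 for Thiamet-G against DMSO and 1 between the inhibitors.

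In 5SGlcNAc against DMSO, the members with all 5SGlcNAc arrays above all DMSO arrays numbered 11. They numbered 13 with quantile normalization and 15 with median centring (all probe sets 11.6%, 16.4% and 20.5%). The number of arrays limits the precision, with a median standard error of 0.066 at 48 h.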
